A study of Mus with 2 samples.

Results

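Immature B cells are the marrow B cells that carry surface IgM but have not yet switched on IgD. In 2 single-cell libraries of mouse hindlimb bone marrow, 254 of 18089 cells that passed the quality limits met the rule for them, 131 of 9180 in the running library and 123 of 8909 in the ground library. A cell was taken when it held at least 2 UMIs of Cd79a, at least 1 of Ms4a1 and at least 1 of Ighm, no UMI of Ighd or Fcer2a, no UMI of Rag1 or Rag2, at most 1 UMI of Dntt, Vpreb1 and Igll1 together, and under 5% of its UMIs from S100a8 and S100a9. Members were thus chosen by their own UMIs of these genes, whose levels are given as a description. A UMI, or unique molecular identifier, counts a captured transcript molecule once.

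The running group and the ground group each gave 1 library, made from hindlimb marrow with a droplet kit that reads the 3′ ends of transcripts. The labels name the groups and no more: the strain, age and number of mice, the running regime and the meaning of ground are not given in the sources used here. No antibody sort is stated, so IgM and IgD are read here as transcripts and not as surface protein. With 1 library per group no difference between running and ground has a replicate check, no test was made, and the groups cannot be told apart from the way their libraries were handled. All intervals are 95% intervals and cover counting error only.

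A developing B cell first rearranges its heavy chain genes and tests the product as a pre-B cell receptor with a surrogate light chain. It then rearranges a κ or, failing that, a λ light chain gene under the RAG recombinase, and displays the finished receptor as IgM with the signalling partners Cd79a and Cd79b. Immature cells that react with self antigen can restart light chain rearrangement, die or become unresponsive, and the others leave the marrow or mature there, gaining IgD, MHC class II, homing receptors and complement receptors.

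The running library held 9473 barcodes and 79990530 UMIs and the ground library 9162 barcodes and 85014860 UMIs, with medians of 5039 UMIs per barcode in running and 5814 in ground. The libraries shared 24 barcode sequences, no barcode gave a member in both libraries, and 1 member had a barcode that also occurred in the other library. The members were shallower than these library medians. They held a median of 3046 UMIs (822 to 29211) and 1417 genes in running and a median of 2993 UMIs (674 to 24984) and 1386 genes in ground.

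The rule was met by a like share of cells in each library. Members made up 1.43% of passing cells in running (1.19 to 1.69%) and 1.38% in ground (1.15 to 1.65%), a ratio of 1.03 (0.81 to 1.32). Of the cells with at least 2 Cd79a UMIs, 9.91% of 1322 in running and 9.53% of 1290 in ground were members, a ratio of 1.04 (0.823 to 1.31). Among cells past the Cd79a limit, the step that removed most was the requirement for no Ighd or Fcer2a UMI, which left 184 of 765 cells in running and 177 of 779 in ground.

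B cell genes that the rule did not use were present throughout. Cd79b, the partner of Cd79a in receptor signalling, was seen in 131 of 131 running members and 122 of 123 ground members. Ebf1, which specifies the B lineage, was seen in 121 running and 114 ground members, and Pax5, which holds cells to that lineage, in 113 running and 102 ground members. In T cells (at least 2 UMIs of Cd3e, Cd3d and Cd3g and none of Cd79a), used as a measure of free RNA, Pax5 was at 0 of 341 cells in running and 0 of 245 in ground. Counts of 0 there allow shares of cells with a UMI of up to 0.88% in running and 1.22% in ground.

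The genes that chose the members were well above the free RNA level in most of them. Members held a median of 26 Ighm UMIs in running and 24 in ground, whereas a T cell held a median of 1 in each library, with an Ighm UMI in 67.7% of T cells in running and 50.6% in ground at median depths of 6188 UMIs in running and 5361 in ground. A single Ighm UMI is therefore not above background, but only 1 running member and 2 ground members held 3 or fewer. Median Ms4a1 stood at 8 UMIs in each library, and 14 running and 15 ground members held exactly 1. An Ms4a1 UMI was seen in 1.47% of running T cells and 0.816% of ground T cells.

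T cell and NK cell transcripts were scarce in the members. T cell markers summed to 7.82 CPM (a gene's UMIs per 1e6 summed UMIs of the group) in running members and 26.9 CPM in ground members, against 3200 CPM in running T cells and 2577 CPM in ground T cells, with Cd3e, Cd3d, Cd3g and Cd4 at 0 in running and Cd4 and Cd8a at 0 in ground. NK cell markers were all at 0 in running and at 45.5 CPM in ground. Erythroid markers summed to 499 CPM in running and 500 CPM in ground members, against 424 CPM in running and 776 CPM in ground T cells. Monocyte markers summed to 164 CPM in running and 279 CPM in ground members, against 1755 CPM in running and 1235 CPM in ground T cells. Neutrophil markers were not scarce. All 8 were detected and summed to 4766 CPM in running members and 5789 CPM in ground members. S100a8 was seen in 131 of 131 running and 122 of 123 ground members. IgD B cells, under the same S100a8 and S100a9 limit, held 6050 CPM in running and 7066 CPM in ground. T cells held 84710 CPM in running and 108042 CPM in ground, but that limit was not set for them, so the rule itself fixes part of this difference.

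A few deep cells stood apart. Plasma cell markers summed to 1565 CPM in running members and 4344 CPM in ground members, and granulocyte-monocyte progenitor markers to 84.1 CPM in running and 868 CPM in ground. The plasma cell sums and the ground progenitor sum came mainly from single cells. A running cell held 2221 UMIs of the switched heavy chain gene Ighg2c, 397 of Jchain, which joins secreted antibody, and 7622 of Igkc. Ground cells held 3238 Igha UMIs with 1509 of Jchain, 2317 Ighm UMIs with 257 of Jchain, and 104, 73 and 106 UMIs of the granule genes Elane, Mpo and Prtn3. Cells with at least 10 Jchain UMIs, at least 10 switched heavy chain UMIs or at least 5 Elane, Mpo and Prtn3 UMIs numbered 4 in running and 5 in ground. Cells with at least 3 UMIs of the division genes Mki67 and Top2a numbered 6 in running and 4 in ground.

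Together these cells were 8 of 131 in running (6.11%) and 7 of 123 in ground (5.69%), but they held 24% of the running members' UMIs and 23.2% of the ground members' UMIs. None was called a doublet by Scrublet, which called 1 other member in each library. The limits for standing apart were chosen after the values were seen. Results are given with and without these cells for a part of the values that differ. Without them 123 running and 116 ground members were left. Plasma cell markers then summed to 494 CPM in running and 511 CPM in ground, and progenitor markers to 92.6 CPM in running and 121 CPM in ground.

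Cells just outside the rule show how sharp its edges are. Cells with exactly 1 UMI of Ighd and Fcer2a numbered 77 in running and 70 in ground. Their Vpreb3 level was 867 CPM in running and 1394 CPM in ground, between that of members (2093 CPM in running and 1912 CPM in ground) and that of cells with 2 or more such UMIs (321 CPM in running and 375 CPM in ground). In running, 6 of these 77 cells held at least 10000 UMIs each and 34.4% of the group's UMIs, whereas no such deep cell was in the ground group. Cells that met the other Cd79a, Ighm and IgD limits but lacked Ms4a1 numbered 89 in running and 84 in ground. Exactly 1 Rag1 or Rag2 UMI kept out 11 cells in running and 17 in ground. Members with Ms4a1 exactly 1 held 4228 CPM Vpreb3 in running and 2004 CPM in ground. Among cells with 2 or more Ighd and Fcer2a UMIs, called IgD B cells here, the median was 6 such UMIs in running and 5 in ground.

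To place the members along development, their summed UMIs were set beside those of small pre-B cells (Cd79a at least 2, a Rag1 or Rag2 UMI, no Ighd, Fcer2a, Mki67 or Top2a; 199 cells in running and 182 in ground) and of IgD B cells (427 in running and 467 in ground). The values are given from small pre-B cells through members to IgD B cells. They are a description, because the rule genes set the groups apart, and no test was made. Of 3412 genes with at least 100 UMIs, members were at least 2-fold above small pre-B cells in both libraries for 97 (2.84%) and at least 2-fold below for 180 (5.28%). Of 5679 genes so measured against IgD B cells, members were at least 2-fold above for 71 (1.25%) and at least 2-fold below for 112 (1.97%). Without the cells standing apart, 101 of the same genes were above and 163 below small pre-B cells. Against IgD B cells 108 were then above and 175 below. In this and later stage comparisons such cells were left out of the members only. IgD B cells kept 5 cells past the plasma cell and progenitor limits and 19 past the division limit in running, and 6 and 15 in ground.

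Genes of the immature stage lay between the neighbours. Vpreb3, which binds newly made receptor chains inside the cell, stood at 4597, 2093 and 321 CPM in small pre-B cells, members and IgD B cells of running, and at 4274, 1912 and 375 CPM in ground. Cd93, the antigen by which immature B cells are sorted, stood at 451, 145 and 27.2 CPM in running and at 465, 108 and 23.4 CPM in ground. Sox4, a transcription factor of early B cell development, stood at 935, 158 and 25.5 CPM in running and at 1043, 205 and 40.2 CPM in ground. These genes kept the same order in each library, and no interval of a member level overlapped a neighbour's.

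Other genes were highest in the members themselves. Ly6d, a surface protein of early B lineage cells, stood at 2074, 3984 and 1709 CPM in running and at 2070, 3200 and 1695 CPM in ground. Cd24a, heat-stable antigen, stood at 702, 925 and 401 CPM in running and at 700, 918 and 376 CPM in ground. The BAFF receptor gene Tnfrsf13c, through which maturing B cells receive survival signals, stood at 148, 503 and 337 CPM in running and at 155, 502 and 394 CPM in ground. Cfp, which encodes the complement factor properdin, peaked likewise, at 9.43, 93.9 and 32.6 CPM in running and at 5.74, 110 and 55.0 CPM in ground. The transcription factor gene Spib was above IgD B cells in each library (757 against 291 CPM in running, 753 against 315 CPM in ground), but in ground it did not differ from the 750 CPM of small pre-B cells. Of the 7 immature B cell genes listed, 6 were at least 2-fold above IgD B cells in both libraries, with medians of 2.04 in running and 1.67 in ground on the log2 scale, beside 0.08 in running and 0.02 in ground over all genes. Ly6d in ground was the exception, at 0.92. Without the cells standing apart in members, and with IgD B cells unchanged, all 7 were at least 2-fold above in both libraries.

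**Figure D1:**
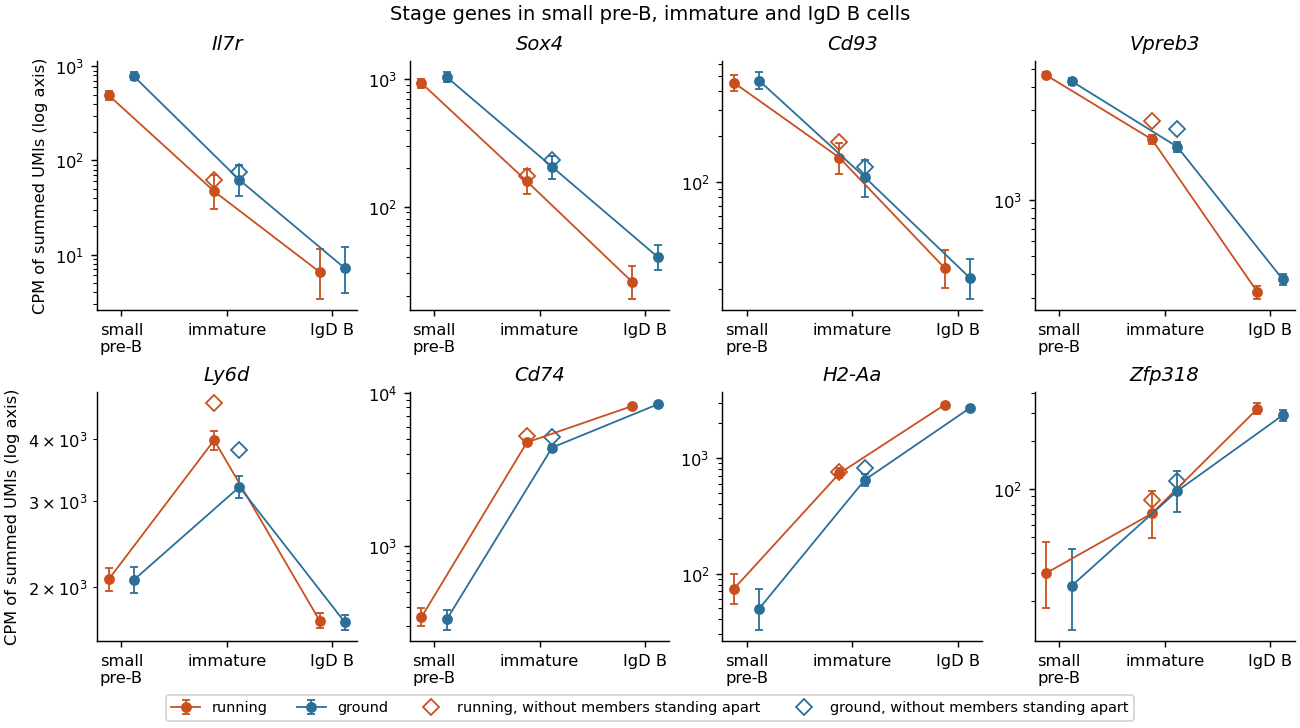
Level of 8 genes as CPM of summed UMIs (log axes) in small pre-B, immature and IgD B cells of the running and ground libraries, with 95% counting intervals. Open diamonds leave out the immature cells that stood apart. Il7r, Sox4, Cd93 and Vpreb3 step down across the stages, Ly6d peaks in immature cells, Cd74 and H2-Aa step up, and Zfp318 is highest in IgD B cells.

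Against IgD B cells, the genes furthest above in the members also included Akap12, a scaffold for protein kinase A, at 233 against 36.9 CPM in running and 205 against 34.6 CPM in ground. Atp1b1, a sodium pump subunit, stood at 264 against 38.6 CPM in running and 240 against 39.7 CPM in ground. Fam129c was at 430 against 87.5 CPM in running and 351 against 74.8 CPM in ground. Serinc5, Myl4, Pafah1b3 and Coq7 completed the 10 highest, with log2 ratios between 1.83 and 2.70. Akap12, Atp1b1, Serinc5, Pafah1b3 and Coq7 were higher still in small pre-B cells, whereas Fam129c was not (402 CPM in running and 413 CPM in ground).

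Genes of the pre-B stage were low or at 0 in the members. The interleukin-7 receptor gene Il7r, which drives pre-B cell growth, stood at 493, 46.9 and 6.52 CPM across the stages in running and at 782, 62 and 7.13 CPM in ground. The transcription factor gene Lef1 stood at 7.82 against 306 CPM in running members and pre-B cells, and at 10.3 against 151 CPM in ground. Vpreb2, part of the surrogate light chain, had no UMI in either set of members and was at least 42.3-fold lower than in pre-B cells in running and at least 14.8-fold lower in ground, taking a floor of 3 counts over each group. Arpp21 was also at 0, at least 20.6-fold lower in running and 13.6-fold lower in ground. All 5 measured genes of the pre-B list were at least 2-fold below pre-B cells in both libraries.

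Further genes lower in members than in pre-B cells were not on that list. Smarca4, the ATPase of the BAF chromatin remodelling complex, stood at 131 against 1257 CPM in running and 153 against 1297 CPM in ground. Xrcc6, the Ku70 subunit that binds broken DNA ends during joining of V, D and J segments, stood at 41.1 against 445 CPM in running and 35.1 against 365 CPM in ground. Tifa, an adaptor of NF-κB signalling, stood at 82.1 against 716 CPM in running and 72.4 against 765 CPM in ground. Levels in IgD B cells were lower again for Xrcc6 (22.8 CPM in running and 20.9 CPM in ground) and Tifa (26.1 CPM in running and 25.5 CPM in ground). Xrcc6 rested on 21 UMIs in running members and 17 in ground members. Its member interval in ground (20.5 to 56.3 CPM) held the level of IgD B cells.

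MHC class II genes, whose products present antigen to helper T cells, were intermediate in their summed levels. Cd74, the invariant chain that guards the class II groove, stood at 344, 4735 and 8177 CPM across the stages in running and at 333, 4387 and 8385 CPM in ground. H2-Aa, a class II α chain, stood at 73.8, 739 and 2912 CPM in running and at 49.7, 647 and 2736 CPM in ground. A Cd74 UMI was seen in 93.1% of running and 91.1% of ground members, but an H2-Aa UMI in 41.2% of running and 35.8% of ground members. The sums therefore need not be the level of each member. Ciita, the master activator of class II transcription, stood at 11, 68.5 and 278 CPM in running and at 7.65, 62 and 271 CPM in ground. Of 9 measured genes 6 were at least 2-fold above pre-B cells in both libraries (medians 2.93 in running and 3.70 in ground), and 7 of 13 were at least 2-fold below IgD B cells (medians −1.42 in running and −1.44 in ground). March1, a ubiquitin ligase that turns over class II, was lower in members than in IgD B cells as well, at 37.2 against 201 CPM in running and 39.3 against 184 CPM in ground.

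Genes of mature, recirculating B cells divided into those already present and those still low. Cr2, the complement receptor CD21, stood at 1.57, 11.7 and 149 CPM in running and at 1.91, 43.4 and 146 CPM in ground. Zfp318, a factor needed for IgD transcripts, stood at 29.9, 70.4 and 317 CPM in running and at 24.9, 97.2 and 289 CPM in ground. Of 13 listed genes of mature B cells, 7 were at least 2-fold below IgD B cells in both libraries, among them Cr2, Zfp318, Cd55, Gpr183, Cxcr5 and Icosl. Without the cells standing apart Cxcr5 was no longer past 2-fold in ground, at −0.75.

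By contrast Klf2, a transcription factor of trafficking and quiescence, was within counting error of IgD B cells, at 735 against 766 CPM in running and 691 against 746 CPM in ground. Fcmr, a receptor for IgM, stood at 75.4, 438 and 707 CPM across the stages in running and at 91.8, 542 and 646 CPM in ground. Bank1, a scaffold of receptor signalling, was at 311 CPM in running members and 285 CPM in ground members, above pre-B cells (log2 ratios 2.98 in running and 2.90 in ground) and below IgD B cells (−0.86 in running and −0.88 in ground). Of 23 B cell receptor signalling genes 3 were at least 2-fold above and 1 at least 2-fold below pre-B cells in both libraries, and 1 was above and none below IgD B cells. Without the cells standing apart 4 were above and none below pre-B cells, and 2 above and none below IgD B cells. Over all genes the shares with all members were 2.84% above and 5.28% below pre-B cells, and 1.25% above and 1.97% below IgD B cells. Among p53 targets 2 of 4 were at least 2-fold above IgD B cells in both libraries, namely Gadd45b (log2 1.14 in running and 1.23 in ground) and Trp53inp1 (1.13 in running and 1.24 in ground). Against pre-B cells none of 4 was at least 2-fold above and 1 was at least 2-fold below in both libraries. The medians over pre-B cells were −0.37 in running and −0.73 in ground.

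Division genes among the members came from few cells. After thinning each cell to 1000 UMIs, a UMI of Mki67, Top2a or Cdk1 was seen in 9 of 129 running members (6.98%, 3.24 to 12.8%) and in 7 of 121 ground members (5.79%, 2.36 to 11.6%). Without thinning the shares were 9.92% in running and 13.8% in ground. The share in T cells, thinned alike, was 6.74% in running and 6.97% in ground, and in IgD B cells 6.79% in running and 6.22% in ground, so the interval of the share in members held the shares of both comparison groups. Pclaf and Tuba1b ranked among the 10 genes furthest above pre-B cells, but Pclaf stood at 190 CPM in running and 128 CPM in ground with all members and at 2.57 CPM in running and 2.69 CPM in ground without those standing apart. The median of the 20 cell cycle genes over IgD B cells was 0.37 in running and −0.19 in ground with all members, and none was at least 2-fold higher or lower in both libraries. Without the cells standing apart the medians were −2.25 in running and −2.34 in ground. Of the 20 genes 13 were then at least 2-fold lower in both libraries, beside 175 of all 5679 genes. Members, but not IgD B cells, were left out by their Mki67 and Top2a UMIs, so that choice lowers these values.

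Light chain use was read from UMIs of the constant region genes, which do not show how each receptor was rearranged. The κ constant gene Igkc (ENSMUSG00000076609) lies at chromosome 6, 70726435 to 70726754, and the λ constant genes Iglc1 (ENSMUSG00000105906), Iglc3 and Iglc2 at chromosome 16, 19061752 to 19062071, 19065365 to 19065681 and 19198536 to 19198852, in GRCm38.p6. Iglc2 and Iglc3 are near-identical, so their separate counts are uncertain and the λ genes were summed. A cell was called λ-dominant when its λ UMIs exceeded its Igkc UMIs, among cells with at least 3 light chain UMIs. That minimum was also reached by 22 of 341 T cells in running and 47 of 245 in ground. Over all small pre-B cells the median was 3 Igkc UMIs in running and 5 in ground.

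λ-dominant members were 41 of 131 in running (31.3%, 23.5 to 40.0%) and 23 of 122 in ground (18.9%, 12.3 to 26.9%). The ratio of these shares was 1.66 (1.06 to 2.60), and at 1000 UMIs per cell the shares were 32.5% in running and 19.3% in ground. In IgD B cells the shares were 12.9% in running and 9.85% in ground, a ratio of 1.31 (0.904 to 1.89), and at 1000 UMIs per cell they were 13.7% in running and 13% in ground. In small pre-B cells they were 48.7% of 150 cells in running and 43.9% of 155 cells in ground, a ratio of 1.11 (0.871 to 1.41), over the cells with enough light chain UMIs. At 1000 UMIs per cell they were 56.9% in running and 49.2% in ground. At 2000 UMIs per cell the shares in running and ground were 52.8% and 38.3% in small pre-B cells, 30.5% and 20.2% in members, and 14.1% and 11.3% in IgD B cells. The order of the stages was therefore the same in each library. The members' share was 2.43 times that of IgD B cells in running (1.71 to 3.46) and 1.91 times in ground (1.21 to 3.03), and it was 0.643 times that of small pre-B cells in running (0.475 to 0.87) and 0.43 times in ground (0.285 to 0.647). Whether the difference between the libraries in members differs from that in IgD B cells was not tested.

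**Figure D2:**
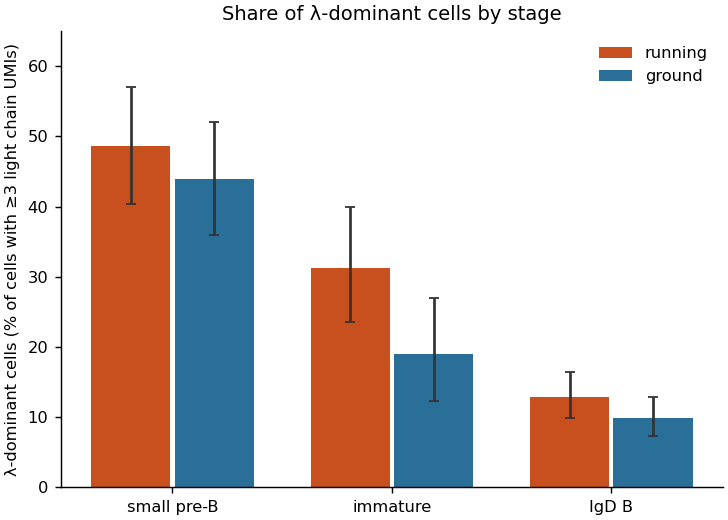
Share of λ-dominant cells (λ UMIs above Igkc UMIs, in percent of cells with at least 3 light chain UMIs) in small pre-B, immature and IgD B cells of the running and ground libraries, with exact 95% binomial intervals. The share steps down from small pre-B to IgD B cells in each library, and among immature cells it is 31.3% in running and 18.9% in ground.

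The sums over members showed the same library difference, mainly in Iglc1. Iglc1 stood at 3360 CPM in running members and 1660 CPM in ground members, a log2 ratio of 1.02 (0.90 to 1.14), and at 1.15 without the cells standing apart. In IgD B cells that ratio was 0.29 and in small pre-B cells 0.69. The log2 ratios of Iglc2 and Iglc3 were 0.30 and 0.37. Igkc had a median of 29 UMIs per member in running and 36 in ground. Its sums, 23870 CPM in running and 37531 CPM in ground, rest in part on the antibody-rich cells described above, and their log2 ratio was −0.65 with all members and −0.21 without the cells standing apart.

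Most κ-dominant members also held λ transcripts. Of the κ-dominant members, 87 of 89 in running and 91 of 97 in ground had a λ UMI, and Iglc1, the gene with no near-identical copy among those summed, was seen in 76.4% of them in running (median 3 UMIs) and in 61.9% in ground (median 2). T cells, which should lack the gene, held an Iglc1 UMI in 3.23% of cells in running and 3.67% in ground although they were deeper. A mixed pattern, with λ at 20 to 80% of light chain UMIs, was found in 60 running members (45.8%) and 59 ground members (48.4%). It is not particular to members, as it was found in 58.8% of IgD B cells in running and 54.4% in ground. Of κ-dominant IgD B cells, 367 of 369 in running and 412 of 415 in ground had a λ UMI. Iglc1 was seen in 52.3% of them in running and 50.1% in ground. Whether these UMIs stem from complete λ transcripts cannot be read from 3′ ends.

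**Figure D3:**
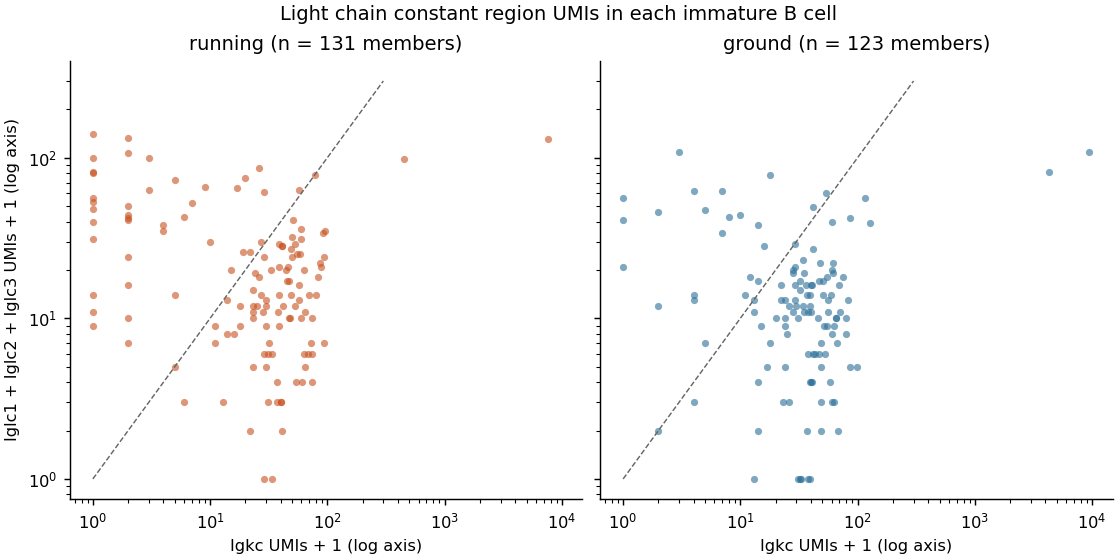
Igkc UMIs (x axis) and summed Iglc1, Iglc2 and Iglc3 UMIs (y axis) of each immature B cell, each plus 1 and on log axes, in the running library (131 members) and the ground library (123 members). Points above the dashed line of equality are λ-dominant, and most points below it still hold λ UMIs.

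Variable region genes were rarely captured, as 3′ reads seldom reach them. At least 2 UMIs of an Igkv gene were seen in 10 members of each library, and their leading Igkv genes were 9 different ones in running and 10 in ground. Ighv genes reached that level in 3 running and 4 ground members, each with a different gene. Iglv1 did so in 2 running and 4 ground members. No repeated heavy chain V gene was seen at this depth.

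A comparison of λ-dominant with κ-dominant members was added after these values were seen, and leaves out the cells standing apart (41 against 81 cells in running, 22 against 91 in ground, with median depths of 2583 against 3292 UMIs in running and 2592 against 3028 UMIs in ground). Of 2415 genes measured, 20 (0.828%) were at least 2-fold higher and 16 (0.663%) at least 2-fold lower in λ-dominant members in both libraries. The MHC class II genes were lower as a group. Of 11 measured, 8 were below 0 in both libraries, where 25.3% of all genes were, with medians of −0.60 in running and −0.99 in ground, beside 0.04 in running and 0.02 in ground over all genes. Other lists also had more genes below 0 in both libraries than that share, with smaller medians. The respiratory chain had 14 of 23 (60.9%; medians −0.24 in running and −0.12 in ground) and the interferon response 5 of 9 (55.6%; −0.13 in running and −0.50 in ground).

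H2-Aa stood at 442 CPM in λ-dominant and 884 CPM in κ-dominant members of running (log2 −1.0, −1.47 to −0.55) and at 196 CPM in λ-dominant and 946 CPM in κ-dominant members of ground (−2.27, −3.29 to −1.41). H2-Aa was seen in 10 of 41 λ-dominant and 39 of 81 κ-dominant members in running, and in 6 of 22 λ-dominant and 34 of 91 κ-dominant members in ground. Cd74 had log2 ratios of −0.60 (−0.76 to −0.45) in running and −0.99 (−1.24 to −0.76) in ground. H2-Ob, which restrains class II peptide loading, was not lower (0.60 in running and 0.17 in ground, with intervals that include 0). Class II genes also varied along the stages, and their level within members was not matched for stage.

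**Figure D4:**
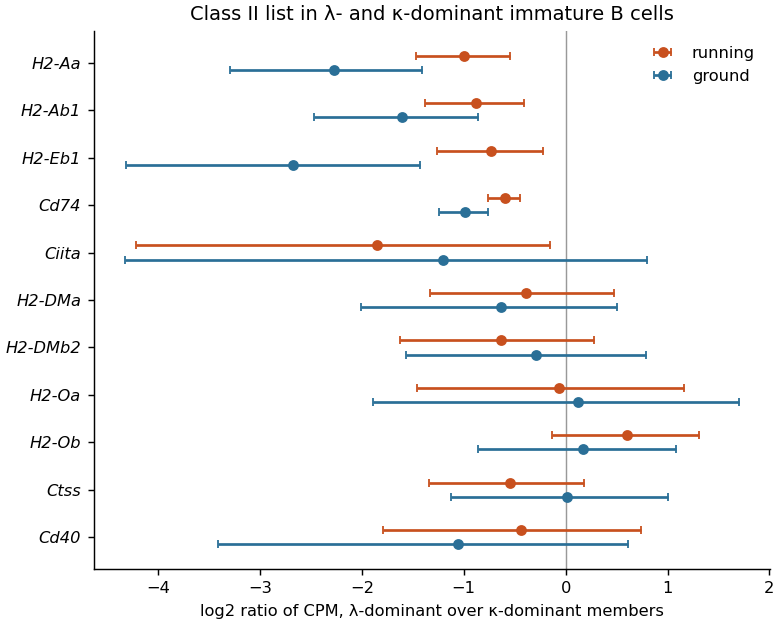
Log2 ratio of CPM in λ-dominant over κ-dominant immature B cells for the 11 measured MHC class II genes, in running and ground, with 95% counting intervals and without the cells standing apart. H2-Aa, H2-Ab1, H2-Eb1 and Cd74 lie below 0 with their intervals in each library, and H2-Ob lies above 0 with intervals that include 0.

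Genes higher in λ-dominant members included Sec63, part of the channel that takes proteins into the endoplasmic reticulum, with log2 ratios of 2.20 in running and 1.44 in ground. Manf, a factor made under endoplasmic reticulum stress, had 1.36 in running and 1.5 in ground, and Coq7, an enzyme of ubiquinone synthesis, had 1.96 in running and 1.53 in ground. The glutamine transporter gene Slc38a2 had 1.13 in running and 1.44 in ground. Wdfy4, known from antigen cross-presentation in dendritic cells, was lower, at −1.13 in running and −1.24 in ground. Ighm was modestly higher, at 0.42 in running (0.32 to 0.53) and 0.29 in ground (0.15 to 0.42), while Ms4a1 (−0.19 in running and 0.02 in ground) and Cd79a (0.07 in running and −0.08 in ground) had intervals that include 0. Sox4 stood at −0.02 (−0.87 to 0.77) in running and 1.10 (0.35 to 1.80) in ground, and Zfp318 at −0.33 (−1.68 to 0.87) in running and 1.17 (0.06 to 2.18) in ground, so their running intervals include 0 and overlap those of ground.

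Between running and ground, few genes of the members differed by much. Of 3061 genes with at least 50 UMIs over both sets of members, 30 (0.980%) were at least 2-fold higher in running and 25 (0.817%) at least 2-fold lower, and the median log2 ratio was 0.03. Without the cells standing apart 24 (0.784%) of the same 3061 genes were higher and 28 (0.915%) lower. The minimum of 50 UMIs was not set anew for these counts, so they include genes left with few UMIs. Among the ranked genes, which leave out antigen receptor genes, the most uneven of the higher ones were histone and division genes. These rested on the cycling cells. Of the genes not ranked, Ighg2c stood at 11.05, with 2221 of its 2235 running UMIs in 1 cell. Hist1h2ap stood at 1488 CPM in running and 349 CPM in ground (log2 2.09, 1.85 to 2.34), and at 0.52 without the cells standing apart. Mki67 stood at 1.28 with all members and −2.24 without those cells, then on 2 UMIs in running and 9 in ground. Top2a stood at 1.93 with them and 0.35 without, then on 4 UMIs in running and 3 in ground. UMIs of Mki67 and Top2a chose the cycling cells, so the loss of their UMIs was fixed by that choice. The 5 of 11 measured cell cycle genes that were past 2-fold higher (Mki67, Top2a, Hmgb2, Birc5 and Ube2c) were no longer so without the cells standing apart. The list's median was 0.49 with all members and −0.00 without.

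Arl5c, an ARF-like small GTPase gene, was the only gene among the 10 highest ranked with at least 100 UMIs that is not a histone, chromatin or division gene (ENSMUSG00000038352, chromosome 11, 97989575 to 97996285). It had 106 UMIs in 60 running members and 38 UMIs in 30 ground members, or 207 CPM in running and 78.6 CPM in ground. The log2 ratio was 1.40 (0.85 to 1.97), and 1.34 without the cells standing apart. At 1000 UMIs per cell it was seen in 18.6% of running and 7.44% of ground members, against 2.64% of running and 2.46% of ground T cells. In IgD B cells its ratio was 0.23 (−0.20 to 0.67) and in small pre-B cells −0.11 (−0.29 to 0.08). It was highest in small pre-B cells (822 CPM in running and 886 CPM in ground) and lowest in IgD B cells (52.7 CPM in running and 44.8 CPM in ground). λ-dominant members held more of it than κ-dominant members in running (379 against 203 CPM, log2 0.90, 0.29 to 1.51), and in ground the ratio was alike with an interval that includes 0 (160 against 85.1 CPM, log2 0.91, −0.37 to 2.05).

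Interferon-response genes were slightly higher in running. Of 10 measured, 9 were above 0, with a median of 0.57, beside 0.03 over all 3061 genes, of which 54.6% were above 0. None was past 2-fold. Ifi27l2a, an interferon-induced gene (ENSMUSG00000079017, chromosome 12, 103433873 to 103443680), had 470 UMIs in 97 running members and 231 UMIs in 73 ground members, or 919 CPM in running and 478 CPM in ground. This is a log2 ratio of 0.94 (0.71 to 1.18). Its ratio was 0.39 (0.27 to 0.51) in IgD B cells and 0.84 in small pre-B cells. T cells of the 2 libraries differed the same way, at 598 CPM in running and 277 CPM in ground, and this difference was not tested. At 1000 UMIs per cell Ifi27l2a was seen in 46.5% of running and 33.9% of ground members, against 28.7% of running and 24.2% of ground T cells. Ddx58, the RNA sensor RIG-I, had 64 UMIs in running and 32 in ground (0.92, 0.29 to 1.58), and Trim30a had 73 in running and 38 in ground (0.86, 0.28 to 1.47). The list's median was 0.46 without the cells standing apart, 0.27 in IgD B cells and 0.48 in small pre-B cells.

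MHC class I genes were also slightly higher, with 16 of 18 above 0, where 54.6% of all genes were, a median of 0.23 and none past 2-fold. Without the cells standing apart 13 of 18 were above 0, beside 1502 of all 3061 genes, and the class I median was 0.15. H2-K1, a classical class I heavy chain, had 644 UMIs in running and 462 in ground (0.40, 0.22 to 0.57), and 0.32 in IgD B cells. H2-Q4 stood at 0.66 and H2-Q6 at 0.60, but copies of the H2-Q genes resemble each other and their split is uncertain. The class I median in IgD B cells was 0.25, close to that in all members. Class II genes had a median of 0.20 with all members and 0.01 without the cells standing apart, and H2-Eb1 stood at 0.57 with all members and 0.12 without them.

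Single genes of receptor biology differed between the libraries in members. Cd180, a Toll-like receptor relative that modulates B cell activation, had 96 UMIs in running and 54 in ground (0.75, 0.25 to 1.26), against 0.16 in IgD B cells. Ly6d had 2037 UMIs in running and 1548 in ground (0.32, 0.22 to 0.41), against 0.01 in IgD B cells. Ccnd2, a cyclin of growth-stimulated B cells, was lower in running, with 158 UMIs against 243 in ground (−0.70, −1.0 to −0.41), and had the opposite sign in IgD B cells (0.27) and in small pre-B cells (1.97). Bach2, a repressor that restrains plasma cell fate, stood at −0.43 (−0.76 to −0.10) in members, at 0.14 in IgD B cells and at −0.37 (−0.54 to −0.20) in small pre-B cells. Cr2, the complement receptor, had 6 UMIs in running and 21 in ground. None of the 23 receptor signalling genes was past 2-fold, with a median of −0.05, and none of the 24 measured B cell transcription factors, with a median of −0.07.

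Heat shock and glycolysis genes were lower in running. Of 10 heat shock genes 2 were above 0, with a median of −0.41, and −0.27 without the cells standing apart. Hsph1, a co-chaperone of Hsp70, was the only one past 2-fold, with 13 UMIs in running and 41 in ground (−1.74, −2.76 to −0.81), and it stood at −1.31 in IgD B cells and 0.27 (−0.74 to 1.32) in small pre-B cells. Hspa8 and Hsp90aa1, cytosolic chaperones, each stood at −0.56. None of 9 glycolysis genes was above 0, with a median of −0.30, and without the cells standing apart 1 was, with a median of −0.16. In IgD B cells the medians were −0.29 for heat shock and −0.21 for glycolysis genes, but in small pre-B cells they were −0.01 for heat shock and 0.07 for glycolysis genes. Tsc22d3, a glucocorticoid-induced gene, stood at −0.75 (−1.25 to −0.27) in members and −0.73 in IgD B cells.

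Other genes among the 10 lowest ranked with at least 100 UMIs were Gngt2 (−0.98), Txndc11 (−0.92), the Hsp70 cofactor St13 (−0.85), Gpi1 (−0.78), Cycs (−0.73) and Ddx50 (−0.71). Some extremes rested on a single cell. Chil3, a myeloid gene, stood at −1.99 with all members, but 83 of its 124 ground UMIs came from 1 cell, and it was at −0.48 when each library's leading cell was left out. Ly6a stood at −0.84 with all members and −0.39 in that way, and Hspa5, an endoplasmic reticulum chaperone, at 0.61 with all members and −0.02 in that way. Rcn2, a calcium-binding protein of the endoplasmic reticulum, had 8 UMIs in running and 3 in ground, a log2 ratio of 1.33 (−0.72 to 3.88), which is within counting error. It stood at 2.52 without the cells standing apart, on 6 UMIs in running and 1 in ground, and at 1.71 (0.81 to 2.70) in IgD B cells, on 43 UMIs in running and 14 in ground.

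**Figure D5:**
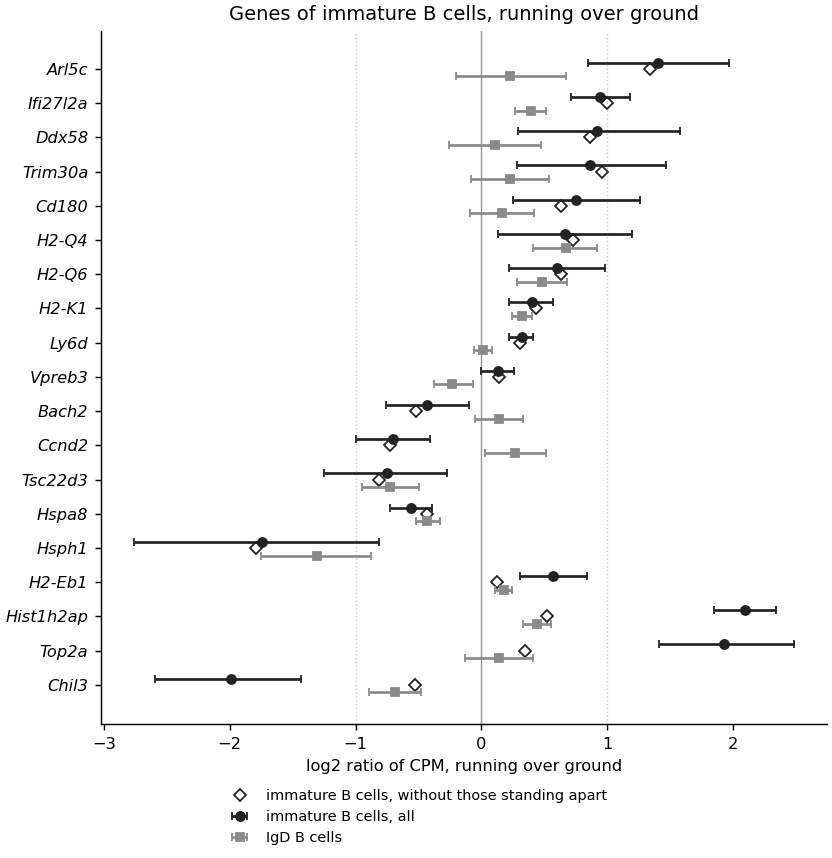
Log2 ratio of CPM, running over ground, for 19 genes in all immature B cells (black points), in those left after removing the cells standing apart (open diamonds) and in IgD B cells (grey squares), with 95% counting intervals. Arl5c, Ifi27l2a and Hsph1 keep their values without the cells standing apart, whereas Hist1h2ap, Top2a, H2-Eb1 and Chil3 move towards 0.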

How the data were processed

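Hindlimb bone marrow cells of 1 running and 1 ground library were analysed. The deposited matrices hold unnormalized UMI counts. Their file headers name Cell Ranger 5.0.0, the submitters' processing notes add STAR and mm10, and further steps are not given in the sources used here. Barcodes were required to have 500 UMIs, 250 genes and no more than 10% mitochondrial UMIs, which removed 293 of 9473 in running and 253 of 9162 in ground. Each library's total UMIs are given in the report, and depth sets the width of the intervals.

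Cells were chosen by the rule in the report with no clustering. Counts were summed per library and group of cells and expressed as CPM. Log2 ratios carry exact conditional binomial intervals, shares exact Clopper-Pearson intervals and ratios of shares log-normal intervals. Genes needed 50 UMIs over both libraries (100 over all cells compared for stages) and were counted past 2-fold. Scrublet (scanpy 1.11.5) called 100 doublets (1.09%) in running and 243 (2.73%) in ground, which were kept and left out only as an alternative. The limits for cells standing apart and the λ against κ comparison were added after values were seen. Named genes are, in each comparison, the 10 with the highest and the 10 with the lowest ratio at 100 UMIs or more (ranked for stages by the smaller ratio of the 2 libraries with 10 CPM added, rule genes left out), up to 4 genes per list, and all genes of the stage lists; antigen receptor, ribosomal, mitochondrial, haemoglobin and other cell types' marker genes were not ranked. Any other gene named was chosen after its values were seen. Some genes that this rule names are not reported here. The members, gene lists and comparisons were chosen with earlier results of these data known. Python 3.11.15 (scipy 1.17.1, numpy 2.4.6, pandas 2.3.3) and, for the TMM alternative, edgeR 4.0.16 in R 4.3.3 were used, and the ratio procedure was tested on simulated data. Positions are those of RefSeq on GRCm38.p6, matched by symbol for 3006 of 3061 genes (98.2%).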

Additional observations from a re-analysis of the deposited data

How the results depend on the processing

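The counts of genes past 2-fold between running and ground depended most on the choice of cells and the minimum. From 30 higher in running, the count was 95 with cells of 1 Ighd or Fcer2a UMI taken in, 13 without members holding transcripts of other lineages, 12 without cycling members, 17 with at least 100 UMIs and 828 with 1 UMI in each library. From 25 lower, it was 13 without members holding transcripts of other lineages, 6 with at least 100 UMIs, 1044 with 1 UMI in each library and 44 as a mean of CPM over cells. In running, 6 deep cells gave 34.4% of the UMIs of the cells with 1 Ighd or Fcer2a UMI. The cause was not tested beyond what these settings leave out. Without cycling members the cell cycle median was −0.09 over the genes that still had 50 UMIs and −0.24 over the same 11 genes, and Hist1h2ae (−0.50), Mki67 (−2.03) and Ube2c (−0.45) changed sign. Mki67 was itself among the genes that chose the cycling members. With cells of 1 Ighd or Fcer2a UMI taken in, the heat shock median was −0.11. The interferon median stayed between 0.21 and 0.57 and Arl5c between 0.87 and 1.47 over all alternatives, TMM and median centring included. The ratio of member shares, the λ share ratio and the stage counts moved by less than their counting error or within 1.5 times (7 of 7, 5 of 5 and 16 of 16 alternatives). Leaving out other-lineage and cycling members together was not among these alternatives. The counts against IgD B cells, which were left unchanged, then went from 71 to 108 above and from 112 to 175 below, past 1.5 times. The share of members was 1.99% in running and 1.84% in ground with the rule applied at 2000 UMIs per cell, and 2.27% in running and 2.17% in ground with 1 Ighd or Fcer2a UMI allowed. No paired analysis was possible because each group has 1 library and no replicate, and for the same reason no library could be left out. Depth limits genes under 50 UMIs and the calling of IgD from 0 UMIs.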
